A study of Mus musculus with 16 samples.

Results

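The tau transgene and Ch25h were crossed in a design of 4 genotypes, and the interaction asks whether the effect of the transgene on a gene's RNA depends on Ch25h. All 16 libraries of the series enter it, 4 per genotype, chosen by genotype alone: wild type (WT), Ch25h knockout (CKO), PS19 tau transgenic (T), and PS19 tau transgenic with Ch25h knockout (TCKO). PS19 mice carry human 1N4R tau with the P301S mutation, which causes an inherited frontotemporal dementia, under the prion protein (PrP) promoter. CKO and TCKO mice carry the Ch25h knockout, and the 4 genotypes came from a cross of PS19 with knockout mice. Every library came from the right hippocampus of a PBS-perfused female aged 40 weeks (9.5 months), so age, sex and tissue were shared by all 4 groups. The labels name the promoter, not the cells it was active in. For each gene, 2 tau effects were measured, T minus WT where Ch25h is present and TCKO minus CKO where it is lost. The interaction is the second minus the first, on the log2 scale. A negative interaction therefore stands for a smaller rise (or a larger fall) with the transgene in mice without Ch25h, and a positive one for the reverse.

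Ch25h encodes cholesterol 25-hydroxylase, which turns cholesterol into the oxysterol 25-hydroxycholesterol. In brain the enzyme is known mainly from microglia, the resident macrophages, where interferon and Toll-like receptor signals induce it. Its product is known to hold back SREBP2, the transcription factor of the cholesterol synthesis genes, to activate the liver X receptors (LXR), which drive sterol export, and to act in antiviral defence. PS19 mice accumulate phosphorylated tau and develop gliosis and neuron loss in the hippocampus with age.

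Library totals ran from 15064258 to 34348225 reads, with the lowest in CKO replicate 4. Mean totals, in megareads, were 30.8 ± 2.53 for WT and 30.5 ± 2.85 for T against 22.1 ± 4.89 for CKO and 26.9 ± 3.13 for TCKO (SD, n = 4 each), so the libraries of the knockout genotypes were shallower. Mitochondrially encoded genes took 9.19% ± 0.53 of the reads in WT and 8.60% ± 0.35 in T, against 7.61% ± 0.74 in CKO and 7.72% ± 0.17 in TCKO (SD, n = 4 each). A gene's level is its CPM, its reads over the TMM-scaled library total, listed by replicate number. Effects are given on the log2 scale with their SE (4 libraries in each genotype), from edgeR's quasi-likelihood F-test with Benjamini-Hochberg adjustment over the 18565 genes tested, and a gene is called at an adjusted p under 0.05. The labels do not say that each library is a separate mouse, so the p-values measure the spread between libraries. The targeted gene, Ch25h (ENSMUSG00000050370, chromosome 19, 34473778 to 34475164 on GRCm38), had 18, 25, 20 and 40 reads in the WT libraries and 2, 0, 0 and 1 in CKO. It had 300, 149, 154 and 133 reads in T and 0, 1, 1 and 0 in TCKO, so the reads followed the labels in all 16 libraries. Choroid plexus markers set WT replicate 1 and T replicate 4 apart, with mean levels of 3.49 and 3.62 log2 units above the WT mean against 0.75 or less in the other 14 libraries. Of the named genes, 76 were followed through the alternative fits, and calls of these that ended without the 2 libraries are given beside the gene. Other named genes were not followed in this way. Prox1, a marker of dentate granule cells chosen to check the tissue, had mean CPM of 47.0 ± 24.1 in WT and 59.7 ± 24.3 in CKO, and of 46.6 ± 10.7 in T and 56.6 ± 21.9 in TCKO (SD, n = 4 each).

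With Ch25h lost, the tau effect was lower for 26 of 36 interferon-stimulated genes, 17 of 30 markers of disease-associated microglia, 6 of 19 complement genes and 8 of 28 reactive astrocyte genes, against 2.45% of all genes tested. It was higher for 16 of 25 cholesterol genes, against 0.695%. The other members of these lists did not pass the test of the interaction. T minus WT was called for 4490 genes (24.2% of the genes tested) and TCKO minus CKO for 100 (0.539%). The interaction was called for 584 genes, 3.15% of those tested. It was lower for 455 (2.45%) and higher for 129 (0.695%), and 3486 genes had an unadjusted p under 0.05. DESeq2 called 861 lower and 389 higher, and with 1 library left out the lower calls ran from 248 to 725 and the higher calls from 38 (without CKO replicate 4) to 541 (without T replicate 5). The 455 lower genes had a median interaction of -1.60, with a median tau effect of 1.97 with Ch25h and 0.35 without it. For the 129 higher genes the median interaction was 0.74, and the median tau effects were -0.62 and 0.14. The number of interaction calls was 1266 without T replicate 5, 298 without T replicate 2, 334 without T replicate 3, 334 without WT replicate 5, 375, 349 and 308 without CKO replicates 1, 2 and 4, 351 without TCKO replicate 5 and 378 without the 2 choroid-rich libraries. The 100 calls of TCKO minus CKO were 765 in DESeq2, 59 in limma voom, 252 with no filter on low counts and 5 with the replicate number as a block. With 1 library left out they ranged from 11 without CKO replicate 4 to 266 without TCKO replicate 4, and their number moved by over 1.5 times without each of the other CKO and TCKO libraries. At equal depth (libraries thinned to the smallest total) the interaction had 566 calls, and each of the 584 kept its sign in every alternative fit in which it was tested.

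The called genes were mostly of one shape, with T apart from the other 3 genotypes. T had the highest group mean in 439 of the 455 lower genes and the lowest in 119 of the 129 higher genes. Of the lower genes, all 455 had a T minus WT estimate above 0, and in 349 the TCKO minus CKO estimate was above 0 as well. That second estimate was within 1.5-fold of no change for 292 of the 455 and for 115 of the 129. Without the transgene, Ch25h loss had a median effect of -0.016 on the lower genes and -0.22 on the higher genes, and with it -1.51 and 0.52. TCKO minus T was called for 2388 genes (12.9%), 893 higher (4.81%) and 1495 lower (8.05%). These shapes describe the called genes and were not tested, since the interaction is built from the same differences. CKO minus WT was called for 2 genes (0.0108%), Ch25h and Golga7b, which encodes a partner of a palmitoyltransferase.

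**Figure D1:**
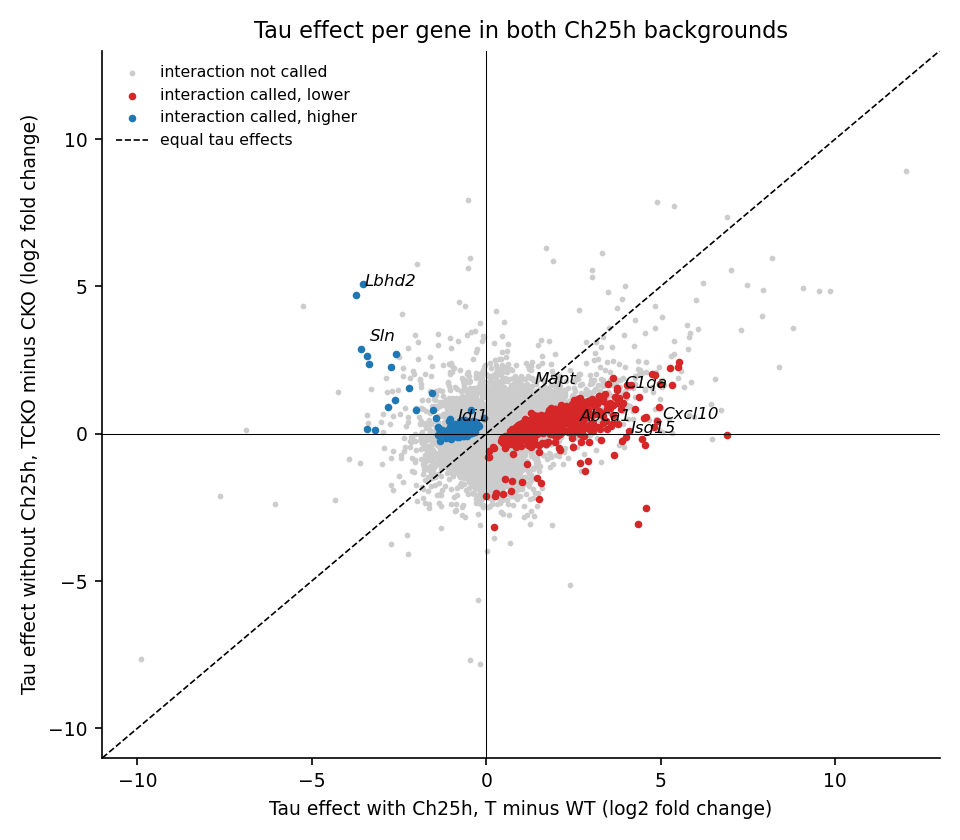
Tau effect of each of the 18565 genes tested, as log2 fold change, with Ch25h present (horizontal, T minus WT) and without it (vertical, TCKO minus CKO). Points on the dashed line have equal effects. The 455 genes called lower in the interaction lie right of 0 and under the line, and the 129 called higher lie left of 0 and above it.

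T minus WT and TCKO minus CKO share no library, so genes chosen on one could be described on the other. The choice favours large values in the first, so a part of any smaller median in the second is built in. The 1388 genes at least 2-fold higher in T than WT and called had a median of 1.77 there and 0.59 in TCKO minus CKO. Of them, 1241 (89.4%) were above 0 in the second and 52 were called, against 0.35% of all genes called higher there. Over all genes the median of TCKO minus CKO was 0.013. The 187 genes at least 2-fold lower went from a median of -1.37 to -0.12, with 117 (62.6%) below 0 and none called. Over all genes 0.189% were called lower in TCKO minus CKO, so a count of 0 is near the background. The share of all genes below 0 was not counted. In the other direction, the 65 genes called higher in TCKO minus CKO had a median of 1.06 there and 1.85 in T minus WT. Of them, 60 were called in T minus WT, where 13% of all genes were called higher. Over all genes the 2 effects had a Pearson r of 0.39 and a Spearman rho of 0.39, given as a description across genes. No gene was called in both tau effects in opposite directions, while 60 were called higher and 11 lower in both.

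Interferon-stimulated genes held the highest share of lower calls of the lists examined: 26 of 36 (72.2%) were called lower, none higher, and all 36 estimates were negative. Their median interaction was -2.63, against 0.025 over all genes tested. All 36 were called higher in T than WT, with a median of 2.90, and none was called in TCKO minus CKO, with a median of 0.33. Over all genes tested 13% were called higher in T minus WT and 0.35% in TCKO minus CKO, so a count of 0 in the second is near the background. These genes answer type I and type II interferons through STAT and IRF transcription factors, which bind interferon response elements in promoters.

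The promoters of 4 of the lower genes are shown because they hold such an element. A gene of the list called lower was eligible if all matches in one of its windows ended before the start site. The promoters shown belong to the eligible genes with the smallest p. They are the RefSeq sequences (GRCm38.p6) of the 250 bases before the start site, 5′ to 3′ on the gene's strand, and capitals mark every match to GAAA, 2 bases of any kind and GAAA, or to the reverse complement (TTTC, 2 bases, TTTC), overlapping matches run together. Isg15 lies at chr4:156200819-156201068, Oas1a at chr5:120907526-120907775, Rsad2 at chr12:26456453-26456702 and Trim30a at chr7:104465194-104465443, all on the minus strand.
Isg15: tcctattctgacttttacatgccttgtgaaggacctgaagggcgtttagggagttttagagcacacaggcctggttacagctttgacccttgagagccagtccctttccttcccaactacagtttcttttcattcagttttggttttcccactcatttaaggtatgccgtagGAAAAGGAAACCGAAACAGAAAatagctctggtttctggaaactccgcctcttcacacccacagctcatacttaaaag
Oas1a: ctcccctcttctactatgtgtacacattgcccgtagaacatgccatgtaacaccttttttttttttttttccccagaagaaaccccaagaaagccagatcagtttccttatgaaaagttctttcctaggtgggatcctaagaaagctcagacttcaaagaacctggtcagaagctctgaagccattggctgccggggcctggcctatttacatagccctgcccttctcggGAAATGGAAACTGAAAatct
Rsad2: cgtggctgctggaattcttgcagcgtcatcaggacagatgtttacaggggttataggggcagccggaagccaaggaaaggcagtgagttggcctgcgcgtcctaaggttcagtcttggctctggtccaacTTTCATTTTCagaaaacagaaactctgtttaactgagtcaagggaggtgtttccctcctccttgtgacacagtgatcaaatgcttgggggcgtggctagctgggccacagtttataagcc
Trim30a: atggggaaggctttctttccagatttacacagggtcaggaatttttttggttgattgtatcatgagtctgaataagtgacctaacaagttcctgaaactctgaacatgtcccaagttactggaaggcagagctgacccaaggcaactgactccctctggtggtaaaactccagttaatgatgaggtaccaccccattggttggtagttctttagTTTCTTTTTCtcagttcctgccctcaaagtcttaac
Isg15, with 3 overlapping matches, encodes a ubiquitin-like modifier, and Oas1a, with 2, a sensor of double-stranded RNA. Rsad2 encodes the antiviral enzyme viperin and Trim30a a TRIM-family protein, and each window held 1 match. In the full 300-base windows, the motif was found in 47 of the 340 lower genes that had one (13.8%), in 5 of 97 higher genes (5.15%) and in 483 of 12768 genes tested (3.78%). It was found in 15 of 25 interferon-stimulated genes (60.0%). A match is a match of letters and was not tested for binding.

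Isg15 was at 2.23, 4.18, 1.58 and 1.45 CPM in the WT libraries and 1.27, 3.71, 4.88 and 2.02 in CKO. T libraries held 33.8, 47.4, 21.4 and 38.4 CPM, and TCKO libraries 1.69, 3.42, 3.11 and 1.52. The 4 T libraries lay above the other 12, which overlapped one another. Isg15 rose by 3.89 ± 0.43 in T and differed by -0.24 ± 0.42 in TCKO from CKO, for an interaction of -4.13 ± 0.59 (adjusted p = 0.00245). Ifit2, which binds viral RNA, was at 46.1, 54.1, 36.6 and 38.6 CPM in T and at 13.1, 12.01, 8.08 and 9.01 in TCKO. Its WT levels were 14.3, 13.2, 11.8 and 9.71 and its CKO levels 9.50, 11.4, 12.3 and 9.04, so TCKO overlapped the genotypes without tau and T was apart. The tau effect on Ifit2 was 1.84 ± 0.18 with Ch25h and -0.00017 ± 0.18 without it, and the interaction -1.84 ± 0.25 (adjusted p = 0.00164). Oas1a (-3.43 ± 0.54, adjusted p = 0.00372), Rsad2 (-2.79 ± 0.45, adjusted p = 0.00409), Trim30a (-2.69 ± 0.46, adjusted p = 0.00535) and Sp100 (-2.48 ± 0.35, adjusted p = 0.00245), a nuclear body protein, likewise had every T library above the other 12. Oasl1, a relative of the Oas sensors that was under 1 CPM in every library but the T ones, was among the 12 lowest interactions (-4.64 ± 0.96, adjusted p = 0.0161), and its call ended when libraries were thinned to equal depth (adjusted p = 0.0501) and with an offset for effective length (-3.81, adjusted p = 0.0579). Ifi211 (-4.47 ± 0.93, adjusted p = 0.0159) and Ifi207 (-4.06 ± 0.96, adjusted p = 0.0302), of the interferon-inducible DNA sensor family whose members are near copies of one another, were also among them.

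The interferon-inducible GTPases, which attack the vacuoles of intracellular pathogens, had 9 of 15 called lower and none higher, with a median of -1.94, or -1.92 without the 1 member that had no reads in a genotype. Irgm1 was at 124, 122, 83.3 and 124 CPM in T and 30.8, 29.2, 15.6 and 16.6 in TCKO, against 23.2, 20.2, 21.0 and 18.8 in WT and 13.4, 15.8, 22.3 and 15.6 in CKO. All 4 T libraries stood above the rest, TCKO replicates 2 and 3 were above every library without tau, and replicates 4 and 5 were within their range. Irgm1 had an interaction of -1.98 ± 0.30 (adjusted p = 0.00353), Gbp7 one of -1.76 ± 0.27 (adjusted p = 0.00362) and Gbp5 one of -3.52 ± 0.55 (adjusted p = 0.00372). MHC class I presentation, the display of peptides to CD8 T cells, had 12 of 18 called lower with a median of -1.65, and all 18 were called higher in T than WT. B2m, the light chain of class I molecules, was at 860.4, 1003, 704 and 770.3 CPM in T and 231, 309, 147 and 140.4 in TCKO, and at 124, 194, 163 and 106 in WT and 132, 164, 199 and 111 in CKO. TCKO replicates 2 and 3 were above every WT and CKO library, and replicates 4 and 5 were within their range. B2m had an interaction of -2.06 ± 0.35 (adjusted p = 0.00566), the immunoproteasome subunit Psmb8 -1.88 ± 0.32 (adjusted p = 0.0056), and the nonclassical gene H2-T23 -1.83 ± 0.31 (adjusted p = 0.00558). Tapbp, which loads peptides onto class I, was called lower in the interaction (-0.92 ± 0.15, adjusted p = 0.00409) and also higher in TCKO than CKO (0.56 ± 0.10, adjusted p = 0.0265), so part of its rise was measured without Ch25h. Of the 10 MHC class II genes, 2 were called lower, H2-Eb1 (-3.02 ± 0.62, adjusted p = 0.0155) and the cathepsin Ctss (-1.84 ± 0.36, adjusted p = 0.0104), and the median was -1.74. H2-DMb1 had -1.42 ± 0.41 (adjusted p = 0.0674), and without TCKO replicate 2 the number called was 6. Without the 2 choroid-rich libraries the count was 8 of 18 for class I and stayed 9 of 15 for the GTPases and 26 of 36 for the interferon-stimulated genes. For the last list the lowest number in the fits that left out 1 library was 18, without CKO replicate 4.

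**Figure D2:**
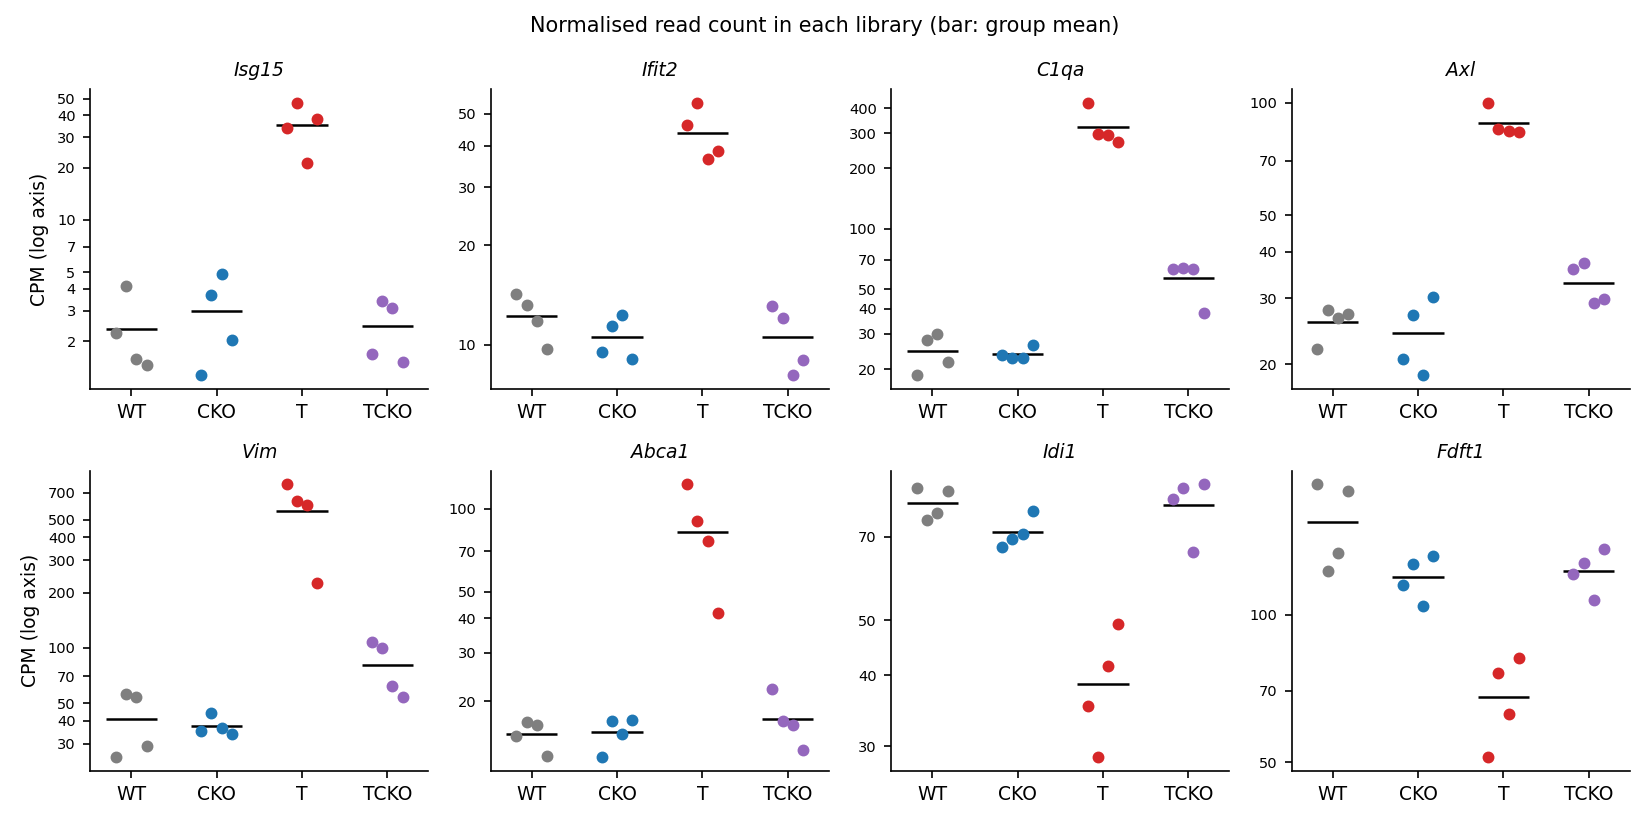
Level in each library, as CPM on a log axis, of 8 genes with a called interaction, with the group mean as a bar. T libraries lie above the other 12 for Isg15, Ifit2, C1qa, Axl, Vim and Abca1 and below them for Idi1 and Fdft1.

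The C1q subunits, which start the classical complement pathway and tag synapses for removal by microglia, had a smaller tau effect without Ch25h, but rose in both backgrounds. C1qa was at 18.6, 28.03, 29.9 and 21.6 CPM in WT and 23.5, 22.8, 22.7 and 26.3 in CKO, and at 426, 296, 294 and 270.2 in T. TCKO held 63.4, 64.0, 62.8 and 38.2 CPM. All 4 TCKO libraries were above all 8 libraries without tau and below all 4 T libraries. The tau effect was 3.71 ± 0.20 with Ch25h (adjusted p = 2.02e-08) and 1.26 ± 0.19 without it (adjusted p = 0.00806), and the interaction -2.45 ± 0.26 (adjusted p = 0.000269). C1qb (-1.97 ± 0.30, adjusted p = 0.0034) and C1qc (-2.19 ± 0.28, adjusted p = 0.0016) were also called in both tau effects. Of 19 complement genes, 6 were called lower, with a median of -1.45, 4 were called without the choroid-rich libraries, and 3 without CKO replicate 2 or without T replicate 2. A pair of other members, picked after their values were seen, rose in both backgrounds and missed the threshold for the interaction. C4b, a component of the classical pathway, was called higher in T (3.54 ± 0.40) and in TCKO (2.09 ± 0.38, adjusted p = 0.0265), with an interaction of -1.45 ± 0.52 (adjusted p = 0.136). The receptor C3ar1 had 3.35 ± 0.35 and 1.74 ± 0.34, with an interaction of -1.61 ± 0.47 (adjusted p = 0.0727). That of C3ar1 passed in DESeq2 (0.0127), with no filter on low counts (0.0355), after thinning (0.0428) and without TCKO replicate 2 (0.0173).

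Fc and Toll-like receptor genes, which sense antibody and microbial products, had 10 of 16 members tested called lower and none higher, with a median of -1.84. Fcer1g, the signalling chain of the Fc receptors, had an interaction of -2.03 ± 0.32 (adjusted p = 0.00366) and the high-affinity receptor Fcgr1 one of -2.14 ± 0.35 (adjusted p = 0.00482). Unc93b1, which carries the endosomal Toll-like receptors to their compartment, had -1.81 ± 0.28 (adjusted p = 0.00366) and was called in TCKO minus CKO as well (0.94 ± 0.20, adjusted p = 0.045). Of 23 cytokine, chemokine and NF-kB genes tested, 7 were called lower and none higher, and the median was -1.72. Cxcl10, an interferon-induced chemokine for T cells, was at 49.7, 43.9, 25.2 and 27.3 CPM in T and 1.47, 1.901, 0.704 and 0.273 in TCKO. WT libraries held 2.94, 0.712, 0.720 and 0.812 CPM and CKO libraries 0.205, 0.517, 3.32 and 0.220. Its T libraries stood far above the rest, and single WT and CKO libraries (replicates 1 and 4) stood above the others of their group. Cxcl10 had an interaction of -4.58 ± 1.04 (adjusted p = 0.0252), which lost its call without WT replicate 5 (0.0546), CKO replicate 4 (0.126), T replicate 2 (0.0564) or T replicate 3 (0.0508). The adhesion molecule Icam1 (-2.05 ± 0.39, adjusted p = 0.00917) kept its call in each of those fits, and the monocyte chemokine Ccl12 (-3.45 ± 0.75, adjusted p = 0.0202) lost it without CKO replicate 4 (0.0624). Of the 23, 1 was called without that library, 2 without WT replicate 5 or T replicate 2, and 3 without CKO replicate 2, T replicate 3 or both choroid-rich libraries.

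Markers of disease-associated microglia, the state that microglia take on around plaques and degenerating neurons, had 17 of 30 called lower and none higher, with a median interaction of -1.85. Their median tau effect was 2.82 with Ch25h and 0.98 without, higher than the 0.33 of the interferon-stimulated genes. In bulk tissue, fewer cells of a type and less RNA per cell cannot be told apart. The mean level of the list, in log2 units from the WT mean, was 3.68, 3.25, 3.34 and 3.03 in the T libraries and 1.75, 1.498, 0.63 and 0.092 in TCKO replicates 2 to 5. The TCKO libraries thus spread widely, with replicates 2 to 4 above every library without tau and replicate 5 among them. WT ranged from -0.40 to 0.29 and CKO from -0.37 to -0.094. The same order of TCKO libraries was seen for reactive astrocytes (1.16, 0.78, 0.19 and -0.036), while the interferon-stimulated list ran from -0.56 to 0.55 in TCKO and from -0.52 to 0.42 in WT.

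Axl, a receptor that lets microglia engulf dying cells, was at 100.2, 85.2, 84.3 and 83.8 CPM in T and 35.9, 37.3, 29.1 and 29.8 in TCKO, against 21.98, 27.9, 26.5 and 27.3 in WT and 20.6, 27.2, 18.7 and 30.2 in CKO. T libraries were apart from the other 12, and TCKO replicates 4 and 5 overlapped CKO. The interaction of Axl was -1.32 ± 0.20 (adjusted p = 0.0034), and that of the growth factor Igf1 -1.76 ± 0.27 (adjusted p = 0.0034). Igf1 rose by 1.403 ± 0.19 in T and differed by -0.36 ± 0.19 in TCKO. Of the 30 markers, 5 were called higher in TCKO than CKO. Cst7, which encodes the protease inhibitor cystatin F and was picked after its values were seen, had 89.0, 57.4, 58.4 and 76.5 CPM in T and 19.3, 7.22, 1.52 and 0.546 in TCKO. WT libraries held 0.226, 0.297, 0.432 and 0.177 CPM and CKO libraries 0.164, 0.474, 0.195 and 0.110. All 4 TCKO libraries were above all WT and CKO libraries, by a wide margin in replicates 2 and 3 and a slight one in replicate 5. Cst7 was called in both tau effects (7.94 ± 0.88 and 4.90 ± 0.92), and its interaction of -3.05 ± 1.54 did not pass (adjusted p = 0.305), with an interval of -6.30 to 0.21. The lectin receptor Clec7a, picked likewise, had 7.47 ± 0.73 and 5.04 ± 0.82, with an interaction of -2.43 ± 1.31 (adjusted p = 0.338, interval -5.21 to 0.35). Both intervals include no difference and a difference of several log2 units.

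Homeostatic microglial genes, expressed by microglia in healthy brain, had 9 of 22 called lower and none higher, with a median of -0.65. Their median tau effect was 1.07 with Ch25h and 0.49 without. Of the 22 interaction estimates, 18 were negative and 4 positive, the highest 1.23. In T minus WT 16 of the 22 were called higher and 1 lower, against 13% and 11.2% of all genes tested. Aif1 (Iba1), a cytoskeletal marker of microglia, was at 90.6, 70.1, 71.0 and 62.1 CPM in T and 24.7, 21.8, 17.1 and 11.7 in TCKO, with 10.8, 14.1, 16.7 and 10.4 in WT and 11.1, 11.03, 15.3 and 9.48 in CKO. T was apart, TCKO replicate 5 was within the WT and CKO ranges, and replicates 2, 3 and 4 were above both. The interaction of Aif1 was -1.81 ± 0.31 (adjusted p = 0.0052) and that of the growth factor receptor Csf1r -1.11 ± 0.21 (adjusted p = 0.00885). Selplg, another member, did not follow: it was called higher in T (0.72 ± 0.12) and in TCKO (0.60 ± 0.12), and its interaction was -0.13 ± 0.16 with an interval of -0.47 to 0.22. Without the choroid-rich libraries 3 of the 22 homeostatic and 10 of the 30 disease-associated markers were called. The numbers were 5 and 11 without WT replicate 5 and without T replicate 2, and the first was also 5 without CKO replicate 4 or TCKO replicate 5. Beside C1qa, the lower genes with the smallest p were the cytokine receptor chain Csf2ra (-2.29 ± 0.25, adjusted p = 0.000269), the actin regulator Abi3 (-1.42 ± 0.15, adjusted p = 0.000269), the interferon regulatory factor Irf8 (-2.68 ± 0.30, adjusted p = 0.000319) and the membrane protein Fxyd5 (-1.60 ± 0.17, adjusted p = 0.000269).

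**Figure D3:**
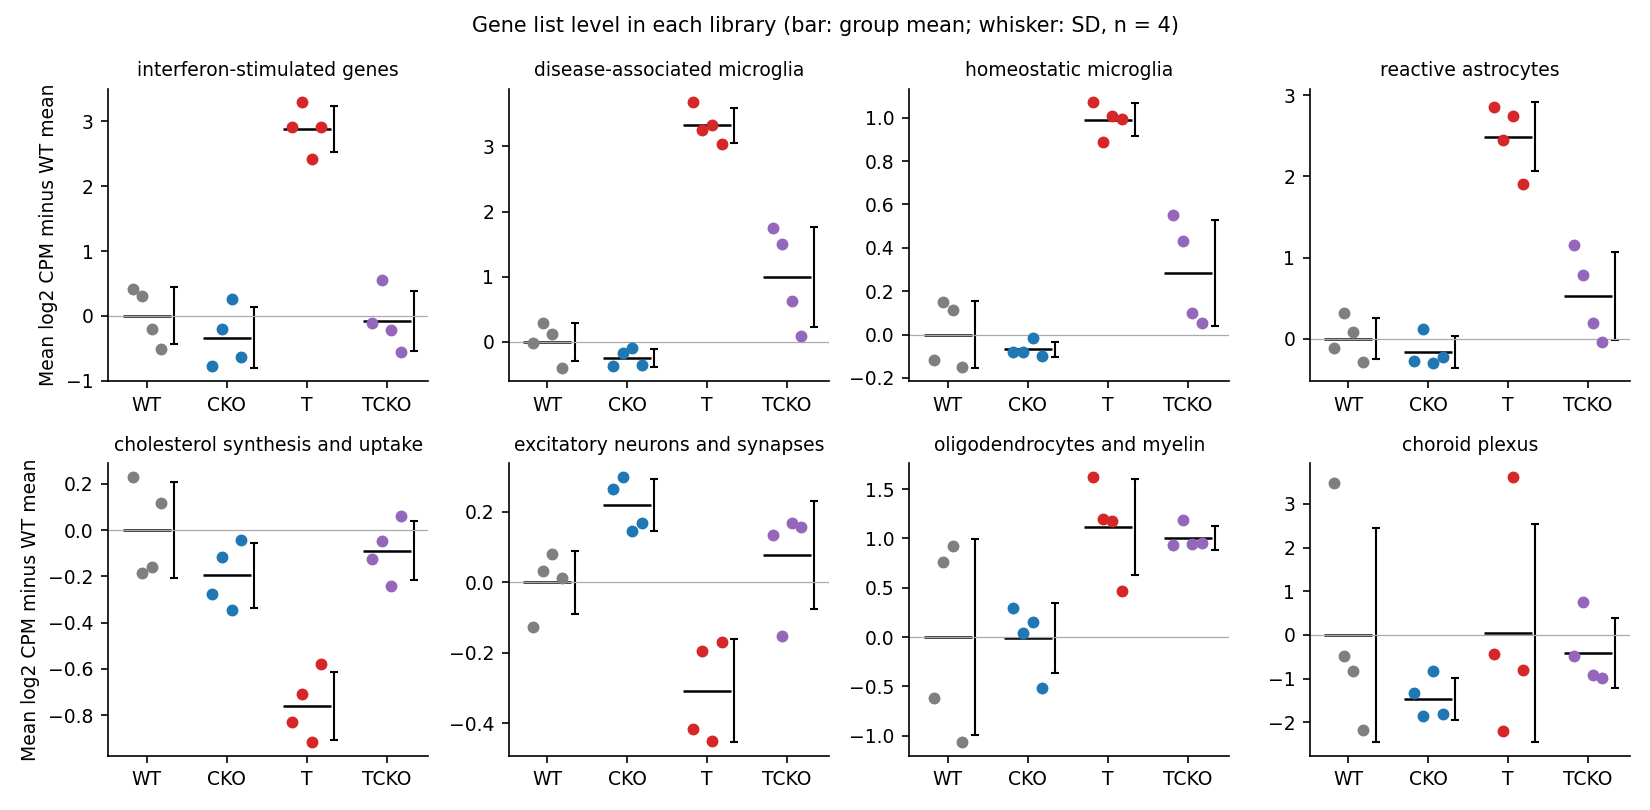
Mean log2 CPM of the members of 8 gene lists in each library, relative to the WT mean, with the group mean as a bar and the SD (n = 4) as a whisker. T is apart from the other 12 libraries for the interferon, microglial, reactive astrocyte, cholesterol and excitatory neuron lists, TCKO spreads from 0.092 to 1.75 for disease-associated microglia, and WT 1 and T 4 stand out for choroid plexus.

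Reactive astrocyte genes, induced when astrocytes respond to damage, had 8 of 28 called lower and none higher, with a median of -1.59, and 5 of 28 without the choroid-rich libraries. Vim, an intermediate filament protein of reactive astrocytes, was at 25.4, 56.0, 53.9 and 29.3 CPM in WT and 35.4, 44.2, 36.8 and 34.1 in CKO. T libraries held 779, 629.8, 603 and 226 CPM and TCKO libraries 108, 99.3, 62.3 and 54.2. T was apart from all others, and TCKO overlapped WT in replicate 5. The interaction of Vim was -2.66 ± 0.47 (adjusted p = 0.00625), that of the protease inhibitor Serpina3n -2.21 ± 0.39 (adjusted p = 0.00611) and that of the transcription factor Stat3 -1.12 ± 0.19 (adjusted p = 0.00589). Gfap, the classical marker of the state and picked after its values were seen, rose in both backgrounds (3.35 ± 0.34 and 1.81 ± 0.32, adjusted p = 0.0248 for the second). Its interaction of -1.53 ± 0.45 did not pass (adjusted p = 0.072), but did in DESeq2 (0.0449), in limma voom (0.0412), with no filter on low counts (0.0302) and without TCKO replicate 2 (0.00491). TCKO libraries held 3082, 1707, 1011 and 765 CPM of Gfap against 6334, 4899.8, 8254 and 6647 in T, so the TCKO level depended on the library. The 15 genes of astrocyte identity were split, with 9 negative and 6 positive estimates, the highest 0.48, and a median of -0.34. Of them, 3 were called lower and 0 higher. The 3 were the water channel Aqp4 (-1.43 ± 0.30, adjusted p = 0.017), the potassium channel Kcnj10 (-1.11 ± 0.27, adjusted p = 0.0338) and the transcription factor Sox9 (-0.94 ± 0.23, adjusted p = 0.0351). Kcnj10 lost its call in 7 and Sox9 in 9 of the 16 fits that left out 1 library, and Aqp4 (0.0604) and Kcnj10 (0.0575) lost it without both choroid-rich libraries.

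Cholesterol genes went the other way. Of 25 genes of cholesterol synthesis and uptake, 16 were called higher in the interaction (64.0%, against 0.695% of all genes tested), none lower, and all 25 estimates were above 0. In mice with Ch25h, 21 of the 25 were called lower with the transgene, with a median tau effect of -0.72, against 11.2% of all genes. Without Ch25h none was called, with a median of 0.082, where 0.189% of all genes were called lower and 0.35% higher. The median interaction was 0.93. Idi1, the isomerase of the isoprenoid steps, was at 85.4, 74.8, 77.01 and 84.1 CPM in WT and 67.1, 69.4, 70.8 and 77.9 in CKO. T libraries held 35.3, 28.7, 41.5 and 49.2 CPM and TCKO libraries 81.6, 85.2, 65.9 and 86.6. The 4 T libraries lay below the other 12. Idi1 fell in T (-1.05 ± 0.13) and differed by 0.16 ± 0.13 in TCKO, for an interaction of 1.22 ± 0.19 (adjusted p = 0.00366). Fdft1, the squalene synthase, was at 51.2, 76.0, 62.7 and 81.7 CPM in T and 121, 127, 107 and 136 in TCKO, and at 185, 123, 134 and 179 in WT and 115, 127, 104 and 132 in CKO. T was again below all other libraries, and TCKO overlapped WT and CKO. Its interaction was 1.23 ± 0.22 (adjusted p = 0.00611). Insig1, which retains the SREBP complex in the endoplasmic reticulum and is itself an SREBP target, had 0.93 ± 0.16 (adjusted p = 0.00508). Hmgcs1, the synthase at the head of the pathway and picked after its value was seen (1.27 ± 0.23, adjusted p = 0.00717), and Msmo1, a sterol demethylating oxidase (1.204 ± 0.21, adjusted p = 0.00544), were close to Fdft1 in size. Without the choroid-rich libraries 10 of the 25 were called, without WT replicate 5 it was 11, and the median stayed between 0.80 and 0.97 in the fits that left out 1 library.

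LXR targets and sterol handling genes were mixed, with 5 of 24 called lower, 1 higher and a median of -0.41. Abca1, the cholesterol exporter and a standard LXR target, was at 122, 89.9, 76.0 and 41.9 CPM in T and 22.2, 17.01, 16.4 and 13.3 in TCKO, and at 14.98, 16.8, 16.5 and 12.6 in WT and 12.6, 16.98, 15.2 and 17.1 in CKO. All 4 T libraries, replicate 5 with the lowest value, were above the other 12, and TCKO replicate 2 was above every WT and CKO library. The interaction of Abca1 was -2.28 ± 0.34 (adjusted p = 0.0034). The cholesterol esterifying enzyme Soat1 (-0.72), the lipoprotein genes Apoe (-1.02) and Clu (-0.61) and the lysosomal sterol carrier Npc2 (-0.86 ± 0.20, adjusted p = 0.0271) were the other lower calls. Npc2 lost its call in 7 of the 16 fits without 1 library and without both choroid-rich libraries (0.0649). Abca1 kept its call without both, where the list had 1 lower call, so Soat1, Apoe and Clu lost theirs as well. Scd1, the desaturase that makes oleate and both an LXR and an SREBP1 target, was the higher call. It was at 119, 139, 116 and 91.0 CPM in WT and 75.2, 90.3, 80.4 and 80.6 in CKO, and at 111, 76.3, 101 and 53.8 in T and 125, 176, 132 and 132 in TCKO. CKO lay below WT and TCKO above CKO in every library, while T overlapped both genotypes without tau. Its interaction was 1.23 ± 0.26 (adjusted p = 0.0182), made of tau effects of -0.44 ± 0.18 and 0.79 ± 0.19, neither of which was called. The number of lower calls was 1 or 2 without WT replicate 2, 4 or 5, CKO replicate 2, 4 or 5, T replicate 2 or 4 or TCKO replicate 5, and 1 without both choroid-rich libraries. Of 23 lysosomal genes 7 were called lower and none higher, with a median of -0.58, among them progranulin (Grn, -1.27 ± 0.19, adjusted p = 0.0034). Of the 23 estimates, 18 were negative and 5 positive. The number called was 3 without the choroid-rich libraries, and 4 without WT replicate 5, CKO replicate 2 or T replicate 2.

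**Figure D4:**
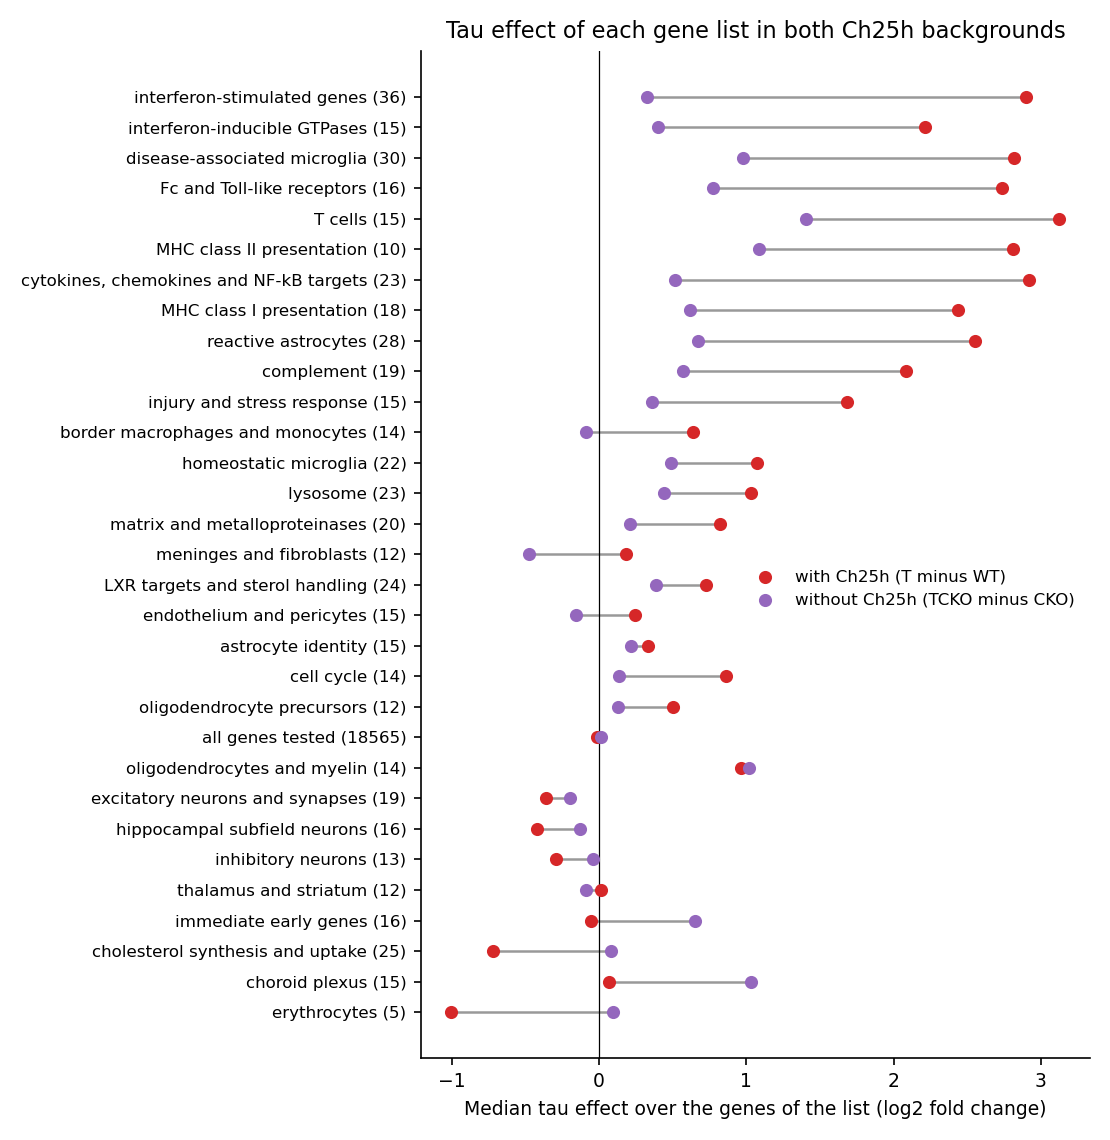
Median tau effect, as log2 fold change, of each gene list with Ch25h (red) and without it (purple), with the number of genes tested in brackets. The interferon-stimulated genes go from 2.90 to 0.33, the cholesterol genes from -0.72 to 0.08, and the myelin genes stay at 0.96 and 1.02.

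Neuronal genes gave no called interaction, with estimates mostly above 0. None of 19 excitatory, 16 subfield and 13 inhibitory neuron genes was called in edgeR, with medians of 0.16, 0.21 and 0.25, and 3, 3 and 3 of them had an unadjusted p under 0.05. Over all genes tested, 3486 of 18565 had such a p. The interaction was called for 3.15% of all genes tested, so 0 calls in lists of this size is near that share. DESeq2 called 0, 0 and 1 of the neuronal genes, and limma voom 0 in each list. Of the 18565 genes tested, DESeq2 called 1250 and limma voom 544. In mice with Ch25h 7 of the 19 excitatory genes were called lower with the transgene (11.2% of all genes), and without Ch25h none of them (0.189% of all genes). Gria2, an AMPA receptor subunit, was at 923, 1033, 928 and 990.3 CPM in WT and 1096, 962, 1119.8 and 957 in CKO. T libraries held 332, 496, 532 and 680.5 CPM and TCKO libraries 932, 759.5, 756 and 878. T was below all others, with replicate 2 the lowest and replicate 5 the nearest to TCKO. The tau effect on Gria2 was -0.93 ± 0.15 with Ch25h (adjusted p = 0.000432) and -0.31 ± 0.15 without (adjusted p = 0.304). Its interaction was 0.61 ± 0.22 (adjusted p = 0.134), and passed without T replicate 5 (0.0225). Camk2a, a synaptic kinase, had 0.63 ± 0.29 (adjusted p = 0.262). As a list, the excitatory genes had mean levels of -0.42, -0.19, -0.45 and -0.17 in T and 0.13, -0.15, 0.17 and 0.16 in TCKO. CKO libraries held 0.27, 0.30, 0.14 and 0.17. T lay below the other 12 libraries, replicate 5 only just below TCKO replicate 3. The median tau effect of the list was -0.36 with Ch25h and -0.19 without it. None of 16 immediate early genes, which follow neuronal activity, was called, with a median of 0.40 and 1 unadjusted p under 0.05, and DESeq2 and limma voom called 0. For 16 genes this too is near the share of all genes called.

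Myelin genes were the list in which the 2 tau effects were closest to equal at a size well away from 0. Their median tau effect was 0.96 with Ch25h and 1.02 without, the median interaction was 0.053, and none of 14 was called by edgeR, DESeq2 or limma voom or had an unadjusted edgeR p under 0.05. With 3.15% of all genes called in edgeR, 0 of 14 is near the background. Mog, a myelin surface protein, was at 68.1, 176, 209 and 38.3 CPM in WT and 112, 101, 113 and 59.8 in CKO. T held 222, 177, 204 and 117 CPM and TCKO 188, 213, 187 and 193. WT replicates 1 and 5 were low, replicates 2 and 4 were near the TCKO level, and WT overlapped T. The interaction of Mog was 0.47 ± 0.53, with an interval of -0.66 to 1.60. This interval is too wide to show equal effects. The median of the list moved between -0.27 (without WT replicate 4) and 0.31 (without WT replicate 5).

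Injury and stress response genes had a median of -1.17, with 11 negative and 4 positive estimates. Of the 15 tested, 3 were called lower and none higher. They were heme oxygenase Hmox1 (-1.54 ± 0.25, adjusted p = 0.00474), the stress-induced regulator Nupr1 (-2.14 ± 0.36, adjusted p = 0.00508) and the cell cycle inhibitor Cdkn1a (-1.85 ± 0.43, adjusted p = 0.0279), the last of which lost its call in 4 of 16 fits without 1 library, without both choroid-rich libraries (0.0723) and in limma voom (0.0551). The proteoglycan Vcan (-0.82 ± 0.21, adjusted p = 0.0391) was the 1 gene called of 20 matrix genes and of 12 precursor genes of the oligodendrocyte lineage, and lost its call in 11 of 16 such fits and without both choroid-rich libraries (0.0826), which left 0 calls in either list. Flt1, a vascular growth factor receptor (-1.26 ± 0.28, adjusted p = 0.0221), was the 1 called of 15 endothelial and pericyte genes, and lost it without TCKO replicate 5 (0.0510). None was called among 15 T cell, 14 border macrophage, 12 meningeal, 15 choroid plexus, 5 erythrocyte, 12 thalamic and striatal and 14 cell cycle genes, of which 7, 4, 3, 0, 0, 5 and 4 had an unadjusted p under 0.05 in edgeR. DESeq2 called 1, 3, 2, 0, 0, 2 and 1 of these, and limma voom 0 in each list. Of the 18565 genes tested, 3486 had an unadjusted p under 0.05 in edgeR, and DESeq2 called 1250 and limma voom 544. In edgeR 3.15% of all genes tested were called, so 0 in a list of this size is near the background. T cell markers had a median interaction of -1.81, or -1.86 without the 1 member that had no reads in a genotype, near that of the microglial list, at low levels. Trbc2, of the T cell receptor, was at 4.20, 7.18, 2.78 and 2.09 CPM in T and 0.824, 0.951, 0.408 and 0.858 in TCKO, against 0.968, 0.445, 0.504 and 0.741 in WT and 0.205, 1.94, 0.390 and 0.772 in CKO. T libraries were above all others, the lowest only just above CKO replicate 2, and the interaction was -2.74 ± 0.78 (adjusted p = 0.0667). Ms4a7, of border macrophages, had -3.08 ± 0.89 (adjusted p = 0.0702), and Col1a1, of fibroblasts, -1.51 ± 0.44 (adjusted p = 0.0731). The T cell list ranged from 2.25 to 3.01 in T, from -0.60 to 1.00 in TCKO, from -0.16 to 0.22 in WT and from -0.68 to -0.11 in CKO. It moved with the interferon and MHC genes, and its part in them was not tested. The median for choroid plexus was 1.00, and moved from -1.28 without WT replicate 1 to 3.96 without T replicate 4.

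Some higher calls rested on a few libraries. Sln, a regulator of the calcium pump, was at 2.26, 24.6, 5.47 and 3.95 CPM in WT and 1.47, 21.3, 31.3 and 1.25 in TCKO. It was at 1.80, 1.03, 3.12 and 1.76 CPM in CKO and 0.669, 0.476, 0.480 and 1.37 in T. The high values were those of WT replicate 2 and TCKO replicates 3 and 4. Glp1r, the receptor for glucagon-like peptide 1, was at 6.55, 44.1, 2.12 and 7.63 CPM in the WT and 5.33, 4.22, 2.41 and 3.71 in the CKO libraries, and at 0.541, 0.513, 1.12 and 3.43 in the T and 0.867, 66.3, 25.5 and 6.16 in the TCKO libraries. Lbhd2 was at 0.258, 25.5, 2.84 and 0.177 CPM in the WT and 0.614, 0.647, 0.846 and 0.478 in the CKO libraries, and at 0.382, 0.586, 0.896 and 0.312 in the T and 1.21, 42.6, 21.5 and 1.72 in the TCKO libraries. The same 3 libraries were the highest for all 3 genes. Their interactions were 6.45 ± 1.35 (adjusted p = 0.0165), 6.06 ± 1.47 (adjusted p = 0.0334) and 8.44 ± 1.9005 (adjusted p = 0.0237), among the highest of all genes. In limma voom the adjusted p were 0.162, 0.250 and 0.354. Glp1r lost its call in 9 and Lbhd2 in 7 of the 16 fits without 1 library, WT replicate 2 among them for both. Glp1r also lost it without the choroid-rich libraries (0.0645). Calb2, a marker of interneurons and of mossy cells of the dentate hilus, was likewise high in TCKO replicates 3 and 4, at 19.2, 154, 134 and 12.5 CPM in TCKO, and in 3 of 4 WT libraries (118, 146, 25.6 and 170.4), and its interaction was 3.75 ± 1.01 (adjusted p = 0.0537). Lzts1 (2.34 ± 0.49, adjusted p = 0.0168), a postsynaptic protein, and Mfge8 (1.53 ± 0.27, adjusted p = 0.00617), a bridging protein for the uptake of dying cells, were lowest in T and kept their calls in each fit. The 12 highest values also held Ano2, a chloride channel (5.71), Arhgap36 (4.97), the serotonin synthesis enzyme Tph1 (3.58), Rnf138rt1 (2.93), the kinase Pnck (1.60) and Cyp4f15 (1.49). The same 3 libraries were the highest for Ano2, and TCKO replicate 3 and WT replicate 2 for Arhgap36.

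**Figure D5:**
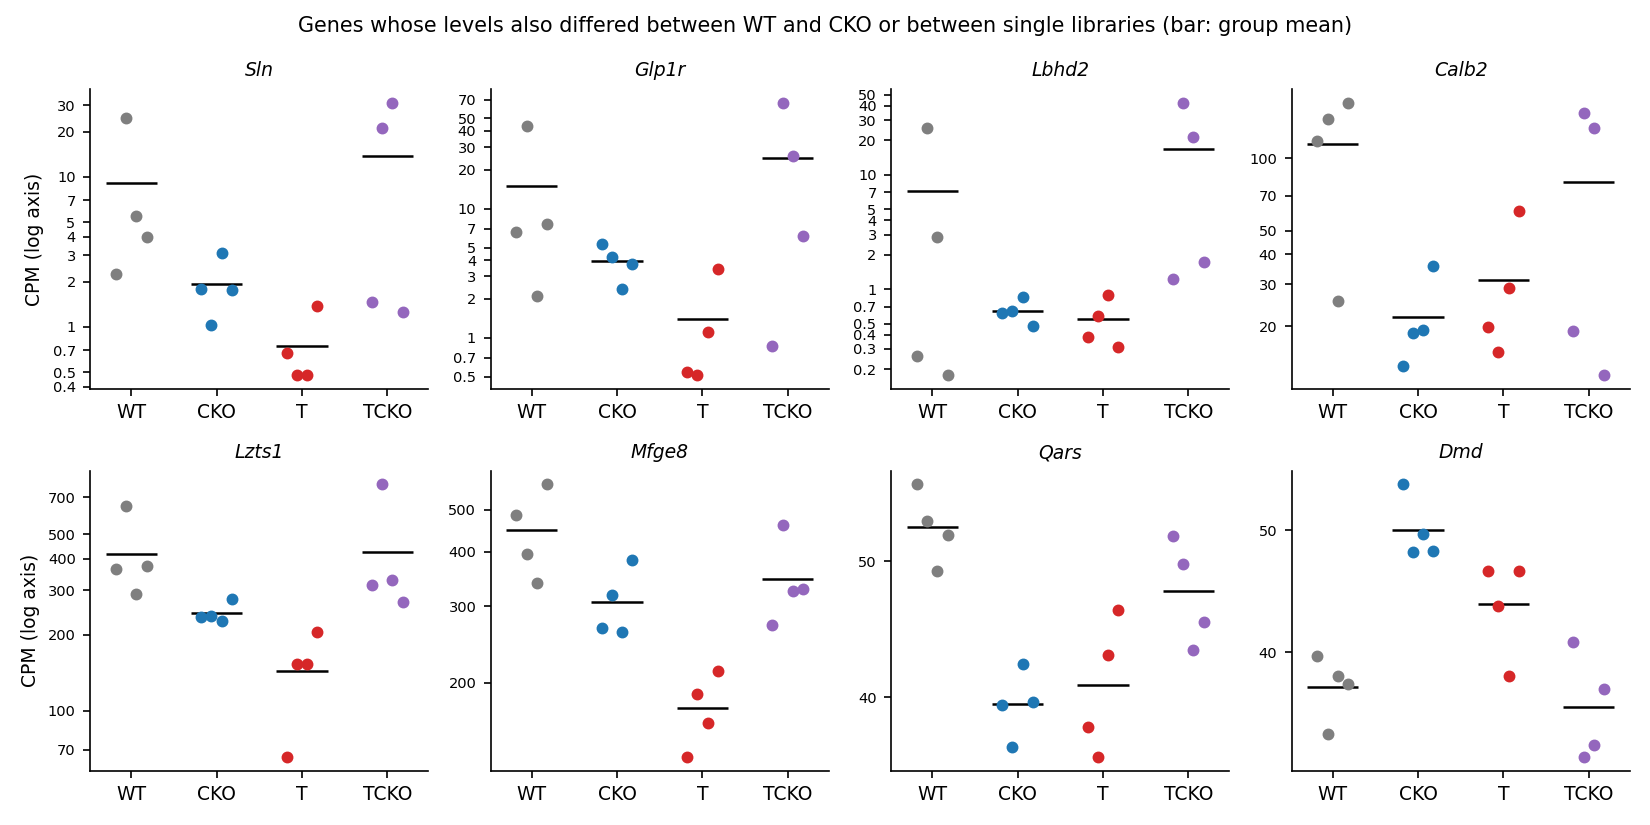
Level in each library, as CPM on a log axis, of 8 genes with other patterns across the genotypes or single libraries, with the group mean as a bar. WT replicate 2 and TCKO replicates 3 and 4 are the 3 highest libraries for Sln, Glp1r and Lbhd2, and for Dmd and Qars the WT and CKO libraries do not overlap.

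In 32 called genes, 20 lower and 12 higher, Ch25h loss had a larger estimate without the transgene than with it. Dmd, which encodes dystrophin, was at 39.7, 34.5, 38.3 and 37.7 CPM in the WT and 54.4, 48.1, 49.7 and 48.2 in the CKO libraries, and at 46.4, 43.5, 38.3 and 46.4 in the T and 40.7, 33.0, 33.7 and 37.4 in the TCKO libraries. Every CKO library was above every other library. Its CKO minus WT difference was 0.42 ± 0.093 (adjusted p = 0.179), and its interaction -0.69 ± 0.13 (adjusted p = 0.00994). Qars, a glutaminyl-tRNA synthetase, ran the other way, at 56.7, 53.4, 49.3 and 52.2 CPM in the WT and 39.5, 36.9, 42.2 and 39.7 in the CKO libraries, and at 38.1, 36.3, 42.9 and 46.1 in the T and 52.1, 49.8, 43.2 and 45.3 in the TCKO libraries. WT was above all CKO and all T libraries, and TCKO lay above CKO and overlapped WT and T. Qars had an interaction of 0.64 ± 0.13 (adjusted p = 0.0162), Smco3 one of 0.76 ± 0.16 (adjusted p = 0.0185) and the B cell and myeloid adaptor Blnk one of -1.68 ± 0.35 (adjusted p = 0.0162). Qars (0.0527) and Blnk (0.0574) lost their calls without the choroid-rich libraries. None of these CKO minus WT differences was itself called. Blnk lies on chromosome 19, as Ch25h does, at 40928927 to 40994535. Whether its position bears on its values was not tested.

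Of the 71 genes called in both tau effects in one direction, 15 also had a called interaction, and for 18 the interval of the interaction lay within 1.5-fold either way. Among the 18 were Mapt and Prnp, the gene of the transgene's product and the gene whose promoter drives it. Mapt was at 329, 357, 359.7 and 342 CPM in WT and 386, 363, 382 and 369.8 in CKO, and at 712, 869, 665 and 830.3 in T and 1138, 812, 943 and 1052 in TCKO. Every library with the transgene was above every library without it, and T and TCKO overlapped. The tau effect on Mapt was 1.15 ± 0.11 with Ch25h and 1.395 ± 0.11 without, and the interaction 0.25 ± 0.15 (adjusted p = 0.392), with an interval of -0.065 to 0.56. For Prnp the effects were 1.17 ± 0.13 and 1.28 ± 0.13, and the interaction 0.11 ± 0.18 (adjusted p = 0.803), with an interval of -0.27 to 0.49. The deposited counts are per mouse gene, and none of the sources used here says how far they hold reads of the human transgene. Over all genes tested, 4148 had an interval within 1.5-fold.

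Around Ch25h, 25 genes within 2 Mb on chromosome 19 were tested. Of these, 5 were called lower (against 2.45% of all genes tested) and none higher: the death receptor gene Fas and the interferon-induced Ifit1, Ifit2, Ifit3 and Ifit3b. Their interactions were -2.10, -2.84, -1.84, -2.56 and -2.48 in that order, and they were named after their values were seen. The other 20 were not called, and none of the 25 was called in CKO minus WT. Genes of chromosome 19 beyond 2 Mb were not counted, among them Blnk and Csf2ra, which are named above. Whether DNA beside Ch25h differed between the genotypes was not tested. The Ifit genes lie side by side and are near copies in part, so reads of one can be counted for another.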

How the data were processed

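RNA from the right hippocampus was measured by RNA-seq in 16 libraries, 4 per genotype, made from oligo-dT primed cDNA, per the labels' protocols. The authors deposited estimated counts per gene, of which 74.53% of the values above 0 were whole numbers. STAR 2.5.1a, featureCounts 1.4.6-p5 and the GRCm38 build are named in the submitters' processing notes, but no source used here names the program behind the estimates. The table had 55774 lines. The first line of each gene was kept and lines that repeated a gene (287) were dropped, which left 55487 genes. Counts were rounded to whole numbers, filtered by filterByExpr, scaled by TMM and fitted with edgeR 4.0.16 (R 4.3.3) with 1 mean per genotype, and 18565 genes were tested. A call is a Benjamini-Hochberg adjusted p under 0.05 in the quasi-likelihood F-test. SE is the size of the estimate over the square root of F, and intervals are 95%. List levels are mean log2 CPM (prior count 2) relative to the WT mean. Lists were described by counts and medians, with no set test, and some genes are in more than 1 list.

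Genes were named as the targeted gene, Mapt and Prnp, the 12 lowest and 12 highest interactions of at least 1 CPM in a group and over 10 reads in each group, the 5 smallest p on each side, the 3 smallest p per list, 6 genes with a larger CKO minus WT than TCKO minus T difference, and 8 genes with an interval within 1.5-fold, and part of them are printed. Exceptions are Soat1, Apoe, Clu, Prox1, Golga7b and the genes so marked in the text. The genes and lists were chosen with earlier results of these data known. Alternatives were DESeq2 1.42.0, limma voom 3.58.1, RLE and upper quartile scaling, other filters, thinning, effective lengths, a replicate block, a minimum fold and leaving out libraries. The sign was also compared on the linear CPM scale, without a test. On counts simulated for 18246 genes, the interaction test found 8.96% of the genes changed 1.5-fold, 26.9% of those changed 2-fold and 84.8% of those changed 4-fold, with 7 false calls of 87. The changed genes (67, 67 and 66) had a mean of at least 1 CPM and were changed in TCKO alone. All genotypes otherwise shared 1 mean, with no tau effect. The data had 584 calls, so the shares found in the simulation need not hold for them.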

Additional observations from a re-analysis of the deposited data

Results flagged for a closer look

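By edgeR's quasi-likelihood test of the interaction, the tau effect differed between mice with and without Ch25h for 61 of the 76 genes followed. These 76 were followed through every alternative, and most were picked by their interaction value or p, so the choice fixed a high count. Over all genes tested 3.15% were called. The values below are on the log2 scale. Interferon-stimulated genes and interferon-inducible GTPases had interactions of -4.13 (Isg15), -1.84 (Ifit2), -2.48 (Sp100), -4.64 (Oasl1), -3.43 (Oas1a), -2.79 (Rsad2), -2.69 (Trim30a), -1.98 (Irgm1) and -3.52 (Gbp5). Antigen presentation, complement and receptor genes had interactions of -0.92 (Tapbp), -1.83 (H2-T23), -1.88 (Psmb8), -1.84 (Ctss), -3.02 (H2-Eb1), -2.06 (B2m), -2.45 (C1qa), -1.97 (C1qb), -2.19 (C1qc), -2.03 (Fcer1g) and -1.81 (Unc93b1). Cytokine and adhesion genes had interactions of -2.05 (Icam1), -3.45 (Ccl12) and -4.58 (Cxcl10). Microglial and other myeloid genes had interactions of -1.76 (Igf1), -1.32 (Axl), -1.81 (Aif1), -1.11 (Csf1r), -2.68 (Irf8), -2.29 (Csf2ra), -1.42 (Abi3), -1.597 (Fxyd5), -1.68 (Blnk), -0.89 (Tgfbr1) and -1.27 (Grn). Tgfbr1 lost its call when both choroid-rich libraries were left out (adjusted p = 0.0684). Astrocyte genes had interactions of -2.66 (Vim), -2.21 (Serpina3n), -1.12 (Stat3), -1.43 (Aqp4), -1.11 (Kcnj10) and -0.94 (Sox9). Sterol genes had interactions of -2.28 (Abca1), -0.86 (Npc2), 1.22 (Idi1), 0.93 (Insig1), 1.204 (Msmo1), 1.23 (Fdft1), 1.27 (Hmgcs1) and 1.23 (Scd1). The remaining genes had -0.82 (Vcan), -1.26 (Flt1), -1.54 (Hmox1), -2.14 (Nupr1), -1.85 (Cdkn1a), 6.45 (Sln), 6.06 (Glp1r), 8.44 (Lbhd2), 2.34 (Lzts1), 1.53 (Mfge8), -0.69 (Dmd), 0.64 (Qars) and 0.76 (Smco3).

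In 27 of 424 groups of 4 libraries (76 genes and 30 lists in 4 genotypes), 1 library lay far from the other 3. Its gap to the nearest of them, as a share of the group's range, was above the 95% critical value of Dixon's test, which chance exceeds in about 1 group in 20. T replicate 2 was the highest library of its group by 0.834 for C1qa, 0.953 for C1qc, 0.916 for Axl and 0.844 for Clec7a. TCKO replicate 5 was the lowest library of its group by 0.953 for C1qa. WT replicate 1 was the highest library of its group by 0.879 for Oasl1 and 0.955 for Cxcl10. CKO replicate 4 was the highest library of its group by 0.9 for Cxcl10, 0.85 for Gbp5 and 0.871 for Blnk. T replicate 4 was the lowest library of its group by 0.949 for Irgm1. CKO replicate 1 was the lowest library of its group by 0.901 for Csf1r. CKO replicate 5 was the highest library of its group by 0.969 for Selplg. T replicate 5 was the highest library of its group by 0.864 for Msmo1. TCKO replicate 3 was the highest library of its group by 0.868 for Scd1 and 0.889 for Lzts1. TCKO replicate 4 was the highest library of its group by 0.911 for Flt1. WT replicate 2 was the highest library of its group by 0.856 for Sln, 0.869 for Glp1r, 0.895 for Lbhd2 and 0.841 for C4b. CKO replicate 2 was the highest library of its group by 0.836 for Col1a1. TCKO replicate 3 was the lowest library of its group by 0.89 for excitatory neurons and synapses and 0.974 for hippocampal subfield neurons. TCKO replicate 3 was the highest library of its group by 0.938 for oligodendrocytes and myelin. T replicate 2 was the highest library of its group by 0.874 for cell cycle. TCKO replicate 2 was the highest library of its group by 0.834 for cell cycle.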

How the results depend on the processing

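Across the 76 genes followed, no interaction changed sign under any alternative, 84 gene-by-alternative results lost a call, 27 gained one and 2017 stayed on the same side. The 2017 include 76 on the linear CPM scale, where only the sign was compared. The number of interaction calls was 544 in limma voom, 589 and 567 with RLE and upper quartile scaling, 606 without a filter on low counts, 676 with at least 1 CPM in 4 libraries, 566 after thinning, 569 without mitochondrial genes and 492 with a length offset. DESeq2 gave 1250 interaction calls, 861 lower and 389 higher, and 765 for TCKO minus CKO. A minimum fold of 1.5 in the test left 119 interaction calls. Without WT replicate 1 and T replicate 4 there were 378 interaction calls, 52 of them higher, and 2696 for T minus WT. For TCKO minus CKO limma voom gave 59 calls and the fit with no filter 252. DESeq2 also called Calb2 (0.0142), Trbc2 (0.0123), Col1a1 (0.0209) and Ms4a7 (0.0266), and limma voom did not call Cxcl10 (0.0568), Ccl12 (0.0518) or Kcnj10 (0.0510). The causes of these shifts were not tested.

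With 1 library left out, interaction calls ranged from 298 (without T replicate 2) to 1266 (without T replicate 5), lower calls from 248 to 725, higher calls from 38 (without CKO replicate 4) to 541, T minus WT calls from 2934 to 5128 and TCKO minus CKO calls from 11 to 266. Of the called genes, 22.1% were higher, against 42.7% without T replicate 5 and 11.7% without CKO replicate 1.

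Replicate numbers are shared between genotypes, and the deviations of same-numbered libraries were compared. They correlated above 0.1 in 3 of 3 pairs for WT with T and for CKO with T, in 1 of 3 for WT with TCKO, 2 of 4 for WT with CKO, 1 of 4 for T with TCKO and 0 of 3 for CKO with TCKO, so the numbers were not taken to pair all 4 genotypes. With the replicate number as a block there were 683 interaction calls, 3411 for T minus WT and 5 for TCKO minus CKO. Under the block Sln (0.0596), Glp1r (0.102) and Lbhd2 (0.0588) lost their interaction calls, Ms4a7 (0.0249) and C4b (0.0395) gained one, and MHC class II had 5 members called lower.

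In simulated data the interaction test found few 2-fold changes, so a missed threshold does not show equal effects. Calls below about 10 reads a group were not named.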
